A study of Mus musculus with 15 samples.

Results

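The genes of the inflammasome, from its sensors to the pore that opens the cell, were followed in RNA of mouse bone marrow-derived macrophages (BMDMs). The set was chosen by name, from what the genes are known to do, and holds 10 of the 25814 genes in the deposited tables: the sensors Nlrp3, Aim2, Nlrc4, Nlrp1a, Nlrp1b and Mefv, the adaptor Pycard, the caspases Casp1 and Casp4 and the pore-former Gsdmd. This choice, and that of the lists around the set, was made with earlier results of these data known. Counts of calls therefore only describe these genes. All 10 passed the filter on low counts, which kept 11804 genes. Casp1 and Casp4 were also in the heat map of the study, whose genes its authors chose on these samples.

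Inflammasomes are complexes built in the cytosol of macrophages when a sensor meets a sign of infection or damage. The sensors recruit the adaptor ASC, the product of Pycard, which gathers and activates caspase-1, and caspase-1 matures the cytokines IL-1beta and IL-18 and cuts gasdermin D. The cut gasdermin D forms pores in the plasma membrane, and the lytic death that follows is called pyroptosis. Mouse caspase-11, the product of Casp4, binds bacterial lipopolysaccharide itself and cuts gasdermin D without a sensor of this kind. Several of these genes are kept low in resting cells and are induced by a first signal, such as one through a Toll-like receptor, before a second signal assembles the complex.

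The cells came from bone marrow of adult wild-type C57BL/6 mice and were grown for 6 days with 20% medium conditioned by L929 cells, a fibroblast line that releases the macrophage growth factor CSF-1, and 10% fetal bovine serum. The 3 groups hold 5 libraries each. Control cells received neither ligand, the CL075 group received 4 µM CL075, a small thiazoloquinolone that activates TLR7 in mouse cells, and the poly(I:C) group received 10 µg/ml poly(I:C), an artificial double-stranded RNA and ligand of TLR3. Both ligands were given for 6 h, so each comparison with control asks how these genes responded to 1 of these ligands. Whether a response ran through the named receptor was not tested. The libraries of each group are numbered 1 to 5 after the letters WT, and the same numbers recur in all 3 groups. Nothing in the labels says whether a number marks an animal, so p-values measure the spread between these libraries, which may be technical. The main fit did not pair libraries by number, and correlations by number are given at the end. No protein, cleavage or secretion was measured, and RNA says nothing of whether an inflammasome was assembled.

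The libraries held 21816291 to 32487565 counted reads, with a median of 27734342. A single library held between 156 reads (Nlrp1b with CL075) and 19822 reads (Casp1 with poly(I:C)) of a gene of this set. Levels below are counts per 1000000 reads (CPM), scaled by TMM, a method that assumes that most genes do not change, and its factors ran from 1.33 to 1.38 in the control group, from 1.03 to 1.09 in the CL075 group and from 0.683 to 0.721 in the poly(I:C) group. Scaling by the plain total of each library would therefore lower every value of the poly(I:C) group against control, and calls of the 10 genes that depend on this choice are named with each gene. Macrophage markers summed to 30990 to 33956 CPM in control cells, 32335 to 36791 CPM with CL075 and 34750 to 36727 CPM with poly(I:C) over the 9 of 10 genes found in the tables. Most of this was Lyz2 (means of 25059, 23874 and 25108 CPM in that order). Adgre1 (2831, 4259 and 3548 CPM) and Csf1r (2964, 3129 and 2387 CPM) were also abundant. Mertk had means of 103.2, 24.7 and 231.8 CPM, and Cd163 stayed at or under 2.80 CPM in every library. The lists of T and NK, B, mast and basophil, and stromal cells each summed to at most 2.14 CPM.

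A call, in either direction, required an adjusted p under 0.05 (edgeR's quasi-likelihood test, with Benjamini-Hochberg adjustment over all 11804 genes), a fold change past 1.5 and, in 1 of the compared groups or both, a mean TPM past 0.5. TPM are reads per transcript length that add up to an equal sum for every library. With poly(I:C), 7 of the 10 genes rose and 2 fell, where 25.4% of all tested genes rose and 30.5% fell. With library totals as the scale 6 rose and 3 fell, where 1544 of the 11804 genes rose and 7660 fell. With CL075 and TMM, 5 of the 10 genes rose and 3 fell, where 17.6% of all tested genes rose and 21.5% fell. The median log2 fold change of the set was 1.81 after poly(I:C) and 0.58 after CL075, beside medians of -0.08 and -0.02 over all genes. Both comparisons share the control libraries. In bulk RNA, a change in the number of cells of a type and a change in the RNA per cell cannot be told apart.

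Nlrp3, Mefv, Casp1 and Casp4 rose with both ligands. Aim2 rose with poly(I:C) and fell with CL075, and Nlrc4 went the other way, falling with poly(I:C) and rising with CL075. Nlrp1b fell with both. Pycard and Gsdmd rose with poly(I:C) and were not called with CL075, while Nlrp1a fell with CL075 and was not called with poly(I:C). The libraries of the ligand and control did not overlap for 9 of the 10 genes in each comparison, as was the case for 75.9% of all genes with poly(I:C) and 65.2% with CL075.

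**Figure D1:**
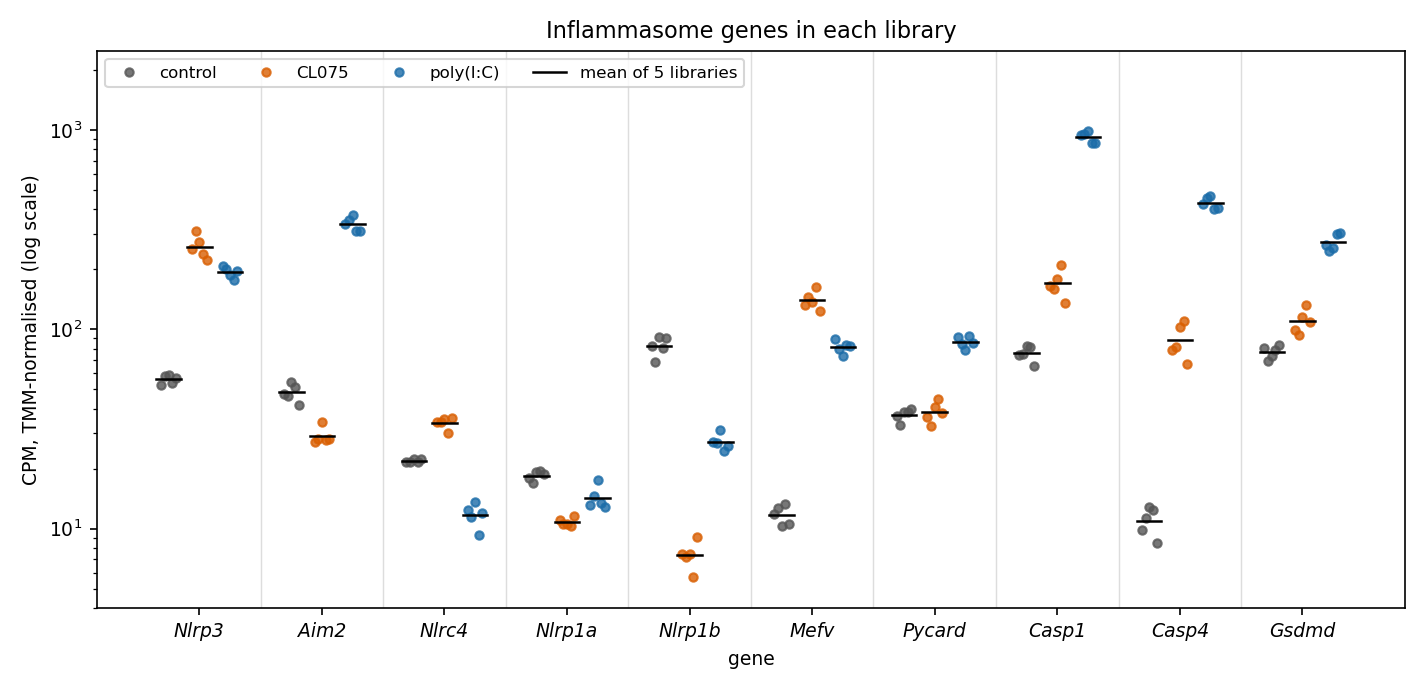
TMM-normalised CPM of the 10 inflammasome genes on a log axis, with 1 point per library (5 per group) and a bar at the mean of each group. Casp1, Casp4 and Aim2 reach their highest values with poly(I:C), Nlrp3 and Mefv with CL075, and Nlrp1b lies lowest with CL075 (5.72 to 9.05 CPM).

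RefSeq promoters (250 bases before the start of transcription and 50 after it, build GRCm38.p6) were found for 9 of the 10 genes, with 12 start sites in all, and Gsdmd had none. None of the 12 held the interferon-response core GAAANNGAAA or the STAT site TTCNNNGAA on either strand, which stood in 3.43% and 8.29% of all 32817 promoters. The kappaB consensus, the letters bound by NF-kB, was found in the promoters of Casp4 and in 1 of those of Nlrp3, and in 4.50% of all promoters. Both are printed here because they are the only ones of the set with that match, which is in capitals and starts 93 bases before the start site in Casp4 (chr9:5308599-5308898, plus strand) and 186 bases before it in Nlrp3 (chr11:59541319-59541618, plus strand). The capitals in Casp4 cover overlapping matches of 1 base of offset. The start sites shown for Casp4 and Nlrp3 are each 1 of 2.
Casp4: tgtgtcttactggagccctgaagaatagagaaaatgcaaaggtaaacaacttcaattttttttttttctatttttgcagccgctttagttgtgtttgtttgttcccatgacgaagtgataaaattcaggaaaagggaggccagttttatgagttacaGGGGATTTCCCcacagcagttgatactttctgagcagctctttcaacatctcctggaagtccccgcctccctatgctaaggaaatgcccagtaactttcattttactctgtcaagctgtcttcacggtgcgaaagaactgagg
Nlrp3: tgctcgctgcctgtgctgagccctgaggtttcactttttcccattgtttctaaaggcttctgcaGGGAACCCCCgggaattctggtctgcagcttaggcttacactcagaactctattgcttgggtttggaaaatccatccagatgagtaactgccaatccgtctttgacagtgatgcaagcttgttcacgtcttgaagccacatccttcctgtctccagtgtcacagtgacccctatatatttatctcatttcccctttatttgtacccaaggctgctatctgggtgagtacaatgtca
The core GAGGAA, typical of sites of the macrophage factor PU.1, was found in Aim2, Pycard, Casp1, Nlrp3, Nlrp1a and Nlrp1b and in 28.3% of all promoters, and the box TATAAA in none of the set and in 13.6% of all. A match of letters is no evidence that a factor binds, and a missing one says only that these letters are not in this window.

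Nlrp3 (ENSMUSG00000032691, chr11:59541568-59566956, plus strand) encodes the sensor that responds to potassium efflux and many other forms of cell stress. In control cells Nlrp3 stood at 52.3, 58.4, 59.2, 54.0 and 57.1 CPM in replicates 1 to 5. CL075 brought it to 252, 310.5, 276, 238 and 224 CPM, and poly(I:C) to 207, 201, 188, 177 and 196 CPM. Every treated library lay above every control library, and every CL075 library above every poly(I:C) library. The means were 56.2 ± 2.95 (SD, n = 5), 260.1 ± 34.0 and 193.8 ± 12.0 CPM. This is a rise of 4.63-fold with CL075 (log2 fold change 2.21, standard error 0.08, edgeR adjusted p = 2.7e-15) and of 3.45-fold with poly(I:C) (1.79, 0.08, edgeR adjusted p = 1.6e-14). Set directly against each other, the ligands differed by a log2 fold change of -0.42 for poly(I:C) against CL075 (edgeR adjusted p = 2.6e-05), short of 1.5-fold and not called, and called lower with upper-quartile factors (-0.59), Hprt (-0.69) or library totals (-1.01) as the scale.

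Mefv (ENSMUSG00000022534, chr16:3707218-3718097, minus strand) encodes pyrin, which senses bacterial toxins that inactivate RhoA and which is mutated in familial Mediterranean fever in humans. Its control libraries held 11.8, 12.7, 10.3, 13.3 and 10.5 CPM. Levels of 133, 145, 136, 163 and 123 CPM followed CL075, and levels of 89.0, 79.7, 73.8, 83.6 and 82.0 CPM followed poly(I:C). The 3 groups did not overlap, and CL075 gave the higher level. Mefv rose 12.0-fold with CL075 (log2 fold change 3.58, standard error 0.09, edgeR adjusted p = 1.6e-17), the largest rise of the set with this ligand, and 6.98-fold with poly(I:C) (2.80, 0.08, edgeR adjusted p = 9.9e-17). Poly(I:C) left it lower than CL075 did by 1.72-fold (log2 fold change -0.78, edgeR adjusted p = 1.2e-08). Neutrophils also express Mefv, and the summed level of 10 neutrophil genes was 92.9 to 147.0 CPM in control cells, 373.9 to 481.5 CPM with CL075 and 262.0 to 367.2 CPM with poly(I:C). Of the 8 neutrophil genes tested, 3 rose with CL075, 2 with poly(I:C) and none fell. Of all tested genes, 17.6% rose and 21.5% fell with CL075, and 25.4% rose and 30.5% fell with poly(I:C). Most of the sum was Csf3r, the receptor of the growth factor G-CSF (means of 76.9, 273.5 and 249.3 CPM), with S100a8 (15.1, 99.2 and 25.7 CPM) and S100a9 (23.7, 43.0 and 51.5 CPM), calcium-binding proteins that stimulated macrophages also make. The granule genes Ltf and Camp had means of 3.40, 3.90 and 4.81 CPM and of 0.529, 1.90 and 0.938 CPM. Ly6g and Elane, which define neutrophils and their precursors, stayed at or under 0.152 CPM and 0.986 CPM in every library, and none of the 10 genes was at 0 in all libraries. The part of such cells in the rise of Mefv was not tested.

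Aim2 (ENSMUSG00000037860, chr1:173350879-173466040, plus strand) encodes a sensor of double-stranded DNA in the cytosol. Its control values were 47.1, 46.5, 54.7, 51.6 and 41.8 CPM. CL075 libraries held 27.2, 28.2, 34.1, 27.7 and 28.0 CPM, all below the control range. Poly(I:C) libraries held 339, 353, 373, 310.3 and 313 CPM, all far above it. The gene thus moved in opposite directions, with a rise of 6.99-fold after poly(I:C) (log2 fold change 2.80, standard error 0.08, edgeR adjusted p = 2.8e-17) and a fall of 1.66-fold with CL075 (-0.73, 0.08, edgeR adjusted p = 5.1e-08). Between the ligands the difference was 11.6-fold (log2 fold change 3.54, edgeR adjusted p = 3.2e-18), the largest of the 10 genes in that comparison. Poly(I:C) also raised the summed level of 7 dendritic cell genes from 0.955 to 1.49 CPM in control cells to 13.5 to 17.8 CPM, of which Clec9a made up 12.1 CPM. Of these, 3 of the 4 tested rose and none fell, where 25.4% of all tested genes rose and 30.5% fell. Xcr1 and Ccr7 went from means of 0.0215 and 0.204 CPM in control cells to 1.36 and 1.21 CPM with poly(I:C). Flt3 and Zbtb46, which also mark dendritic cells, stayed at or under 0.441 CPM in every library. The part of such cells in the rise of Aim2 was not tested.

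Nlrc4 (ENSMUSG00000039193, chr17:74426295-74459108, minus strand) encodes the partner of the NAIP proteins, which bind bacterial flagellin and secretion system proteins. Its control libraries were the most alike of the set, at 21.5, 21.6, 22.4, 21.6 and 22.3 CPM. With CL075 the values were 34.3, 34.4, 35.4, 30.0 and 36.0 CPM, and with poly(I:C) they were 12.4, 11.4, 13.6, 9.32 and 12.0 CPM. The 3 groups were separate, with control in the middle. Poly(I:C) lowered Nlrc4 by 1.87-fold (log2 fold change -0.90, standard error 0.08, edgeR adjusted p = 8.8e-10) and left it 2.91-fold below the level with CL075 (-1.54, edgeR adjusted p = 2.1e-13). The rise with CL075 was 1.56-fold (log2 fold change 0.64, standard error 0.07, edgeR adjusted p = 5.7e-08), just past the threshold. That call was lost with upper-quartile factors (0.48), Hprt (0.35) or library totals (0.29) as the scale, with limma on TPM (0.28), and in edgeR's test against a fold of 1.5 (adjusted p = 0.22).

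Genes for direct partners of NLRC4 and NLRP3 are named here for their role after their values were seen. With TMM, all of them had their highest mean with poly(I:C), and all but Naip2 had their lowest with CL075. Naip2, whose product senses a rod protein of bacterial secretion systems, rose from 162.1 ± 10.5 CPM in control cells to 280.4 ± 30.6 CPM with CL075 and 343.8 ± 23.2 CPM with poly(I:C). Naip5 and Naip6, sensors of flagellin, had means of 80.9 and 77.1 CPM in control cells, 59.7 and 64.1 CPM with CL075 and 115.5 and 131.5 CPM with poly(I:C). Nek7, the kinase that NLRP3 needs for its assembly, stood at 91.1, 75.7 and 135.4 CPM in the same order and was called in neither comparison with control. On the scale of library totals, the values for poly(I:C) against control turned to a log2 fold change of 0.15 for Naip2, -0.42 for Naip5, -0.17 for Naip6 and -0.36 for Nek7, and the rise of Naip2 was also not called with Hprt (0.53). The rise of Naip2 with CL075 was not called with Hprt (0.50) or library totals (0.44) as the scale. Naip5 was called lower with CL075 with upper-quartile factors (-0.59), Hprt (-0.72) and library totals (-0.79), and Naip6 (-0.62) and Nek7 (-0.62) were called lower on library totals.

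Nlrp1a and Nlrp1b lie side by side on chromosome 11 (ENSMUSG00000069830, chr11:71092236-71144704, and ENSMUSG00000070390, chr11:71153102-71230733, both on the minus strand), with 8397 bases between them. Their products are sensors that release an active fragment when they are cut or degraded, as the Nlrp1b protein of some mouse strains is by anthrax lethal toxin. As near copies, the genes could share reads. Of the 75-base words in their transcripts, 0.650% of those of Nlrp1a and 0.445% of those of Nlrp1b occur in the other. Few reads of this length could therefore match both genes exactly. Mismatches, which the mapping allowed, and reads shortened by trimming are not covered by this count, so more reads could be shared. Their promoters are printed because they are so alike while the genes moved by different amounts. The Nlrp1b start site used is 1 of 2, and the promoter of the other was not aligned. Over 290 aligned positions 253 were identical (87.2%), 29 differed and 8 faced a gap. Capitals mark the bases that differ or face a gap (Nlrp1a at chr11:71144655-71144941, Nlrp1b at chr11:71230699-71230983, both read on the minus strand).
Nlrp1a: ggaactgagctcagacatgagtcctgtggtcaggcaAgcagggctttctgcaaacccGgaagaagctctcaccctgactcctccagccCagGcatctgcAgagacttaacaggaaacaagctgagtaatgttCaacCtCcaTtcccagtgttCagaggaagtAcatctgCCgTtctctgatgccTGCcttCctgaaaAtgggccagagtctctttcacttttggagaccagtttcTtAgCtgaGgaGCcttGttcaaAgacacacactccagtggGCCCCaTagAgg
Nlrp1b: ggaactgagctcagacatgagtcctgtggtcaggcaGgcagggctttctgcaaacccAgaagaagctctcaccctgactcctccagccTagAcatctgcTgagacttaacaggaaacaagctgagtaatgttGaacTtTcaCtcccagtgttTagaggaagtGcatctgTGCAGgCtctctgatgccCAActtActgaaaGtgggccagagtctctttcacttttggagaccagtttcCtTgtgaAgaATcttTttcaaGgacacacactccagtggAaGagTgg
Both hold the core GAGGAA, 83 bases before the start site in Nlrp1a and 96 before it in Nlrp1b.

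Nlrp1b had 82.7, 68.9, 91.2, 80.5 and 90.1 CPM in control cells. Only 7.44, 7.21, 7.43, 5.72 and 9.05 CPM were left with CL075, and 27.2, 26.9, 31.4, 24.5 and 25.9 CPM with poly(I:C). No library of a ligand reached the lowest control library, and the ligand groups were separate from each other. CL075 lowered Nlrp1b by 11.2-fold (log2 fold change -3.48, standard error 0.10, edgeR adjusted p = 9.8e-16), the largest fall in the set, and poly(I:C) by 3.05-fold (-1.61, 0.09, edgeR adjusted p = 5.7e-12). It was 3.66-fold higher after poly(I:C) than after CL075 (log2 fold change 1.87, edgeR adjusted p = 5.1e-12).

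Nlrp1a was lower in level and moved less. Its values were 17.9, 16.9, 19.2, 19.4 and 18.7 CPM in control cells. They were 10.98, 10.5, 10.5, 10.3 and 11.5 CPM with CL075 and 13.2, 14.5, 17.5, 13.4 and 12.8 CPM with poly(I:C). The CL075 libraries lay below all others, while poly(I:C) and control overlapped. The fall with CL075 was 1.70-fold (log2 fold change -0.77, standard error 0.07, edgeR adjusted p = 1.1e-08). Poly(I:C) gave a log2 fold change of -0.37 (95% interval -0.53 to -0.21, edgeR adjusted p = 1.2e-04), short of 1.5-fold, and it was called lower with upper-quartile factors (-0.69), Hprt (-0.92) or library totals (-1.31) as the scale. Poly(I:C) against CL075 gave 0.40 (edgeR adjusted p = 9.6e-05), not called, and -0.19 on library totals. Per length, Nlrp1b had 2.97 ± 0.23 times the TPM of Nlrp1a in control cells, 0.450 ± 0.055 times with CL075 and 1.26 ± 0.08 times with poly(I:C), and the ranges of the ratio did not overlap (2.70 to 3.19, 0.366 to 0.519 and 1.18 to 1.36). This ratio within a library does not depend on the scale. CL075 thus left Nlrp1a as the more abundant of the pair in 5 of 5 libraries.

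**Figure D2:**
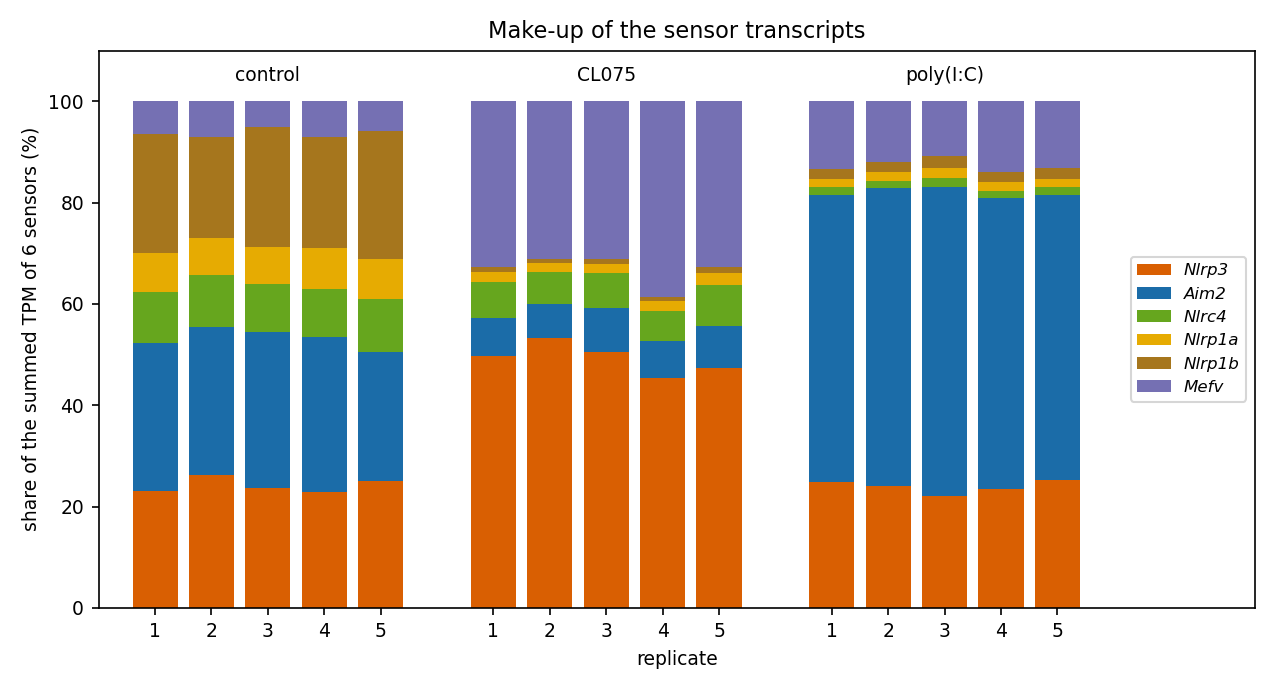
Share of each of the 6 sensors in their summed TPM (%), 1 stacked bar per library, 5 per group. Aim2 (29.0%), Nlrp3 (24.2%) and Nlrp1b (22.8%) lead in control cells, Nlrp3 (49.2%) and Mefv (33.3%) with CL075, and Aim2 (58.1%) with poly(I:C).

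Set against each other per length, the sensors changed in make-up. Their summed level was 184.5 ± 8.79 TPM in control cells, 328.8 ± 22.1 TPM with CL075 and 356.4 ± 14.9 TPM with poly(I:C). In control cells Aim2 made up 29.0 ± 2.05% of it, Nlrp3 24.2 ± 1.41% and Nlrp1b 22.8 ± 2.05%. Nlrc4 added 9.95 ± 0.36%, Nlrp1a 7.70 ± 0.28% and Mefv 6.31 ± 0.85%. No single sensor held a majority there. With CL075, Nlrp3 (49.2 ± 3.04%) and Mefv (33.3 ± 3.12%) came to the front, while Aim2 had 7.73 ± 0.78% and Nlrp1b 0.910 ± 0.203%. With poly(I:C), Aim2 took 58.1 ± 2.00%, at least 56.2% in every library, Nlrp3 had 23.9 ± 1.28% and Mefv 12.6 ± 1.24%. Nlrc4, Nlrp1a and Nlrp1b then each held between 1.31% and 2.36%. Nlrp3 to Aim2 was a ratio of 0.839 ± 0.096 in control cells, 6.43 ± 0.89 after CL075 and 0.412 ± 0.035 after poly(I:C). These shares compare sensors within a library and describe RNA, not the amounts of protein.

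Pycard (ENSMUSG00000030793, chr7:127989708-127993867, minus strand) encodes ASC, whose pyrin and CARD domains link sensors to caspase-1. Control libraries held 36.6, 33.1, 38.6, 38.3 and 39.9 CPM. CL075 libraries held 36.2, 32.8, 40.8, 44.7 and 37.9 CPM and overlapped them. Poly(I:C) libraries held 91.2, 84.1, 78.4, 92.6 and 85.7 CPM and lay above both. Pycard rose 2.32-fold after poly(I:C) (log2 fold change 1.21, standard error 0.07, edgeR adjusted p = 4.7e-12), a call lost on library totals (0.28) and with limma on TPM (0.35). With CL075 the log2 fold change was 0.04 (95% interval -0.12 to 0.20, edgeR adjusted p = 0.60), and it turned negative with upper-quartile factors (-0.11), Hprt (-0.25) or library totals (-0.31) and without CL075 replicate 4 (-0.0064). It was 2.25-fold higher after poly(I:C) than after CL075 (1.17, edgeR adjusted p = 1.2e-11), also lost on library totals (0.58). Gm45205, on the other strand, overlaps 12.8% of the exon bases of Pycard, but had 0 reads in every library.

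Casp1 (ENSMUSG00000025888, chr9:5298517-5307265, plus strand) encodes caspase-1, the protease that the sensors activate. Casp1 stood at 74.2, 75.2, 82.0, 81.4 and 65.5 CPM in control cells. With CL075 it stood at 166, 159.9, 179.7, 210.1 and 136 CPM, and with poly(I:C) at 947, 952, 994, 860.3 and 857 CPM. The 3 groups were separate, and the poly(I:C) libraries stood far above the others. Casp1 rose 12.2-fold after poly(I:C) (log2 fold change 3.61, standard error 0.10, edgeR adjusted p = 4.9e-17) and 2.25-fold with CL075 (1.17, 0.09, edgeR adjusted p = 1.0e-09). Between the ligands it was 5.42-fold higher with poly(I:C) (2.44, edgeR adjusted p = 1.2e-14).

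Casp4 (ENSMUSG00000033538, chr9:5308828-5336783, plus strand) starts 1562 bases after the end of Casp1, on the same strand, and encodes caspase-11. It was among the lowest of the set in control cells, at 9.83, 11.3, 12.8, 12.4 and 8.48 CPM. CL075 raised it to 79.2, 81.8, 103, 110.2 and 67.2 CPM, and poly(I:C) to 423, 453, 464, 400.5 and 408 CPM. The groups were separate, and within control and CL075 the libraries of replicate 5 were lowest. Its rise of 39.3-fold with poly(I:C) was the largest change in the set (log2 fold change 5.29, standard error 0.15, edgeR adjusted p = 3.0e-15), and it rose 8.06-fold with CL075 (3.01, 0.14, edgeR adjusted p = 6.1e-12). Poly(I:C) gave 4.87 times the level of CL075 (2.28, edgeR adjusted p = 4.1e-11). Casp4 gained on its neighbour with both ligands: Casp1 had 11.6 ± 1.02 times the TPM of Casp4 in control cells, 3.24 ± 0.22 times with CL075 and 3.57 ± 0.09 times with poly(I:C). The ratio in control cells (10.6 to 12.9) did not overlap the others, and the lowest poly(I:C) library (3.50) lay just above the highest CL075 library (3.49).

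Gsdmd (ENSMUSG00000022575, chr15:75862327-75867408, plus strand) encodes gasdermin D, the protein whose cut form makes the pore. Control values were 80.2, 69.1, 73.8, 79.1 and 83.0 CPM. Values with CL075 were 99.3, 93.8, 115, 133 and 109 CPM, and with poly(I:C) 265, 249, 255, 302 and 303 CPM. All CL075 libraries lay above all control libraries, and the poly(I:C) libraries above both. Gsdmd rose 3.57-fold after poly(I:C) (log2 fold change 1.84, standard error 0.09, edgeR adjusted p = 2.0e-13). With CL075 its log2 fold change of 0.51 (95% interval 0.33 to 0.70, edgeR adjusted p = 2.1e-05) passed the test but not 1.5-fold, so it was not called. It was 2.50-fold higher after poly(I:C) than after CL075 (1.32, edgeR adjusted p = 3.5e-11).

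**Figure D3:**
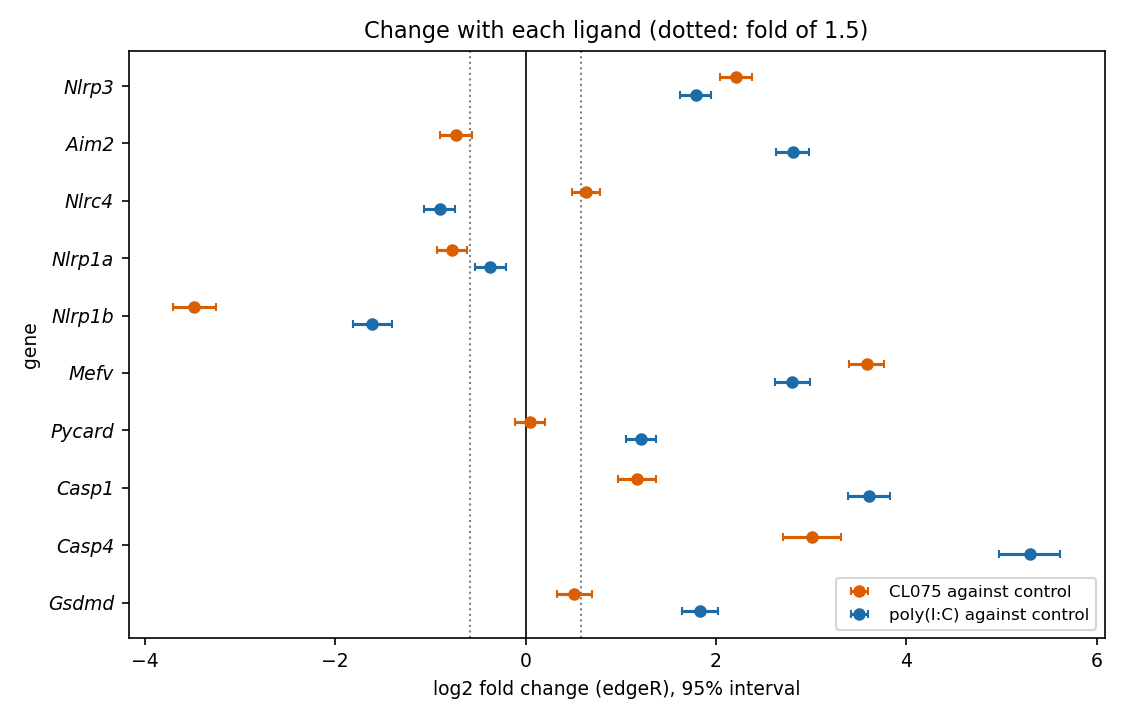
Log2 fold change of each gene with CL075 and with poly(I:C) against the same control libraries (edgeR), with 95% intervals and dotted lines at a fold of 1.5 in each direction. Casp4 (5.29) and Casp1 (3.61) lie farthest right with poly(I:C), and Nlrp1b (-3.48) and Mefv (3.58) lie at the ends with CL075.

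Directly compared, poly(I:C) gave a higher level than CL075 for 6 genes (Aim2, Nlrp1b, Pycard, Casp1, Casp4 and Gsdmd) and a lower one for Nlrc4 and Mefv (5 and 3 with library totals as the scale), where 22.7% of all tested genes were called higher and 23.8% lower. Nlrp3 and Nlrp1a were not called. The libraries of the ligands did not overlap for any of the 10 genes, as was so for 66.2% of all genes. Ordered by role, the adaptor, both caspases and gasdermin D were all higher with poly(I:C), while the sensors split, with Aim2 and Nlrp1b higher, Nlrc4 and Mefv lower and the rest not called.

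The order of levels per length also changed. In control cells Casp1 (162.4 ± 13.0 TPM) and Gsdmd (131.4 ± 10.8 TPM) led, with ranges that overlapped each other, and Nlrp1a (14.2 TPM), Casp4 (14.1 TPM) and Mefv (11.6 TPM) came last, each overlapping the next. With CL075 Casp1 (287.1 ± 36.5 TPM) led clear of the rest, and Nlrp3 (162.3 ± 20.8 TPM) overlapped Gsdmd (147.3 ± 16.9 TPM), as Mefv (109.0 TPM) did Casp4 (89.3 TPM). Pycard, Aim2 and Nlrc4 overlapped in a row at 25.6, 25.3 and 22.5 TPM. With poly(I:C) Casp1 (1098 ± 59.7 TPM), Casp4 (307.1 ± 14.9 TPM), Gsdmd (260.0 ± 29.3 TPM), Aim2 (207.2 ± 13.6 TPM) and Nlrp3 (85.2 ± 5.03 TPM) followed each other without overlap. The adaptor moved little beside its protease: Casp1 to Pycard was a ratio of 5.17 ± 0.61 in control cells, 11.3 ± 1.27 after CL075 and 27.3 ± 3.33 after poly(I:C).

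**Figure D4:**
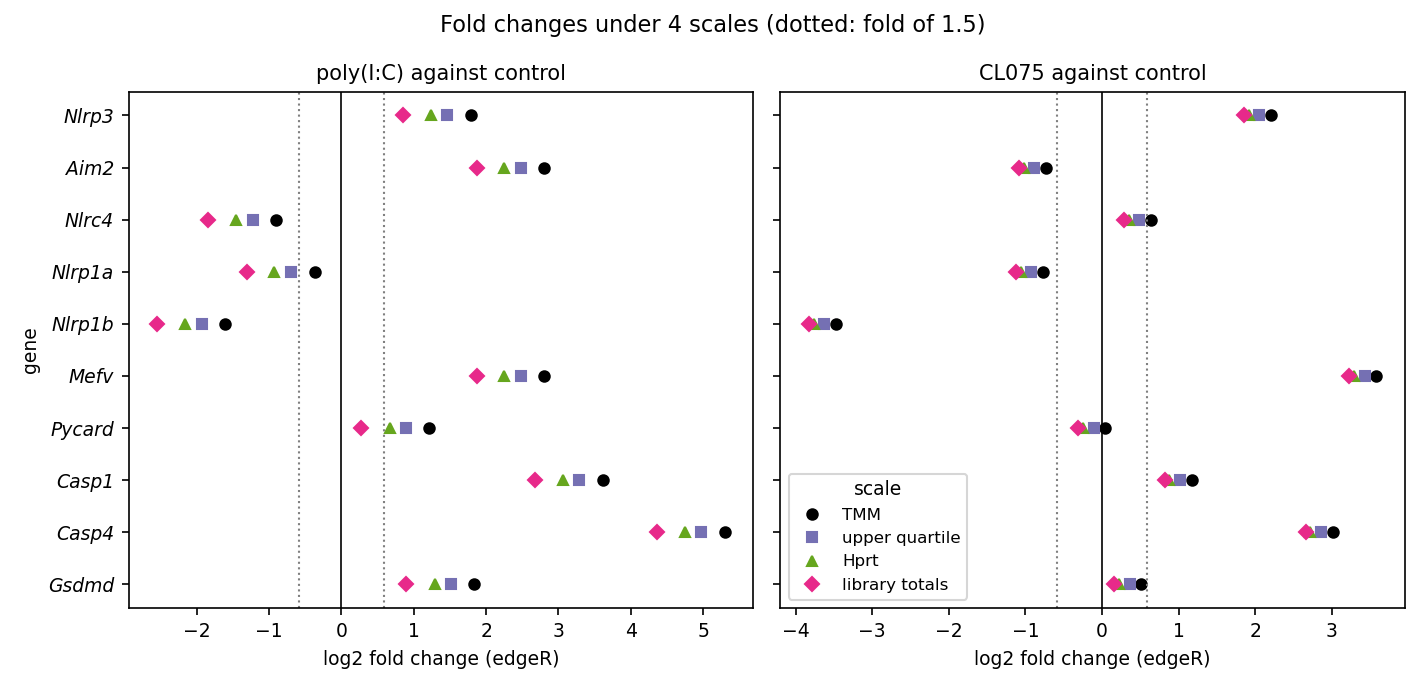
Log2 fold change of each gene against control under 4 scales (TMM, upper quartile, counts of Hprt, library totals), with dotted lines at a fold of 1.5 in each direction. Other scales shift all genes left by about the same amount, which ends the call of Pycard with poly(I:C) on library totals, makes Nlrp1a pass with poly(I:C), ends that of Nlrc4 with CL075 and turns the sign of Pycard with CL075.

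The scale moved all genes together. The median log2 fold change of all genes with poly(I:C) was -0.08 with TMM, -0.41 with upper-quartile factors, -0.63 with Hprt, the internal control of the study's RT-PCR, and -1.02 with library totals. With CL075 these medians were -0.02, -0.18, -0.31 and -0.37, and for poly(I:C) against CL075 -0.01, -0.18, -0.27 and -0.60. Over all tested genes, the 3000 calls of higher and 3596 of lower with poly(I:C) became 1544 and 7660 on library totals. Subtracting the median takes that common shift away again. Log2 fold changes relative to the median were therefore bound to come out nearly alike under each scale, and are no check on the calls. Casp4 with poly(I:C) lay 5.38 above the median under each of the 4 scales, Nlrp1b with CL075 at -3.46 to -3.45 from it, Pycard with poly(I:C) 1.29 to 1.30 above it and Nlrc4 with CL075 0.66 above it.

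Of the cytokines that caspase-1 matures, Il18 was highest with poly(I:C), as Casp1 was, and Il1b was highest with CL075. Il1b, which encodes IL-1beta, stood at 12.0 ± 3.44 CPM in control cells, 1519 ± 276.1 CPM with CL075 and 27.0 ± 5.56 CPM with poly(I:C). The log2 fold change of Il1b was 6.97 with CL075 (standard error 0.23, edgeR adjusted p = 4.9e-13) and 1.16 with poly(I:C) (0.20, edgeR adjusted p = 6.1e-05), and the latter came to 0.22 on library totals and was not called there. Il18, which encodes IL-18, had 8.94 ± 1.36, 12.7 ± 3.71 and 50.4 ± 4.08 CPM in the same order. It rose with poly(I:C) on each of the 4 scales (log2 fold change 2.50 with TMM, standard error 0.16, edgeR adjusted p = 3.3e-10) and was not called with CL075 (0.51, edgeR adjusted p = 0.010). Il1a, a cytokine related to IL-1beta, had 0.361 ± 0.218, 55.3 ± 14.1 and 8.25 ± 2.10 CPM in the same order, and Il1rn, the antagonist of their receptor, 60.9 ± 8.60, 1352 ± 256.6 and 4757 ± 379.0 CPM. Il33, another cytokine of the family, had at most 0.057 CPM in a control library, 0.343 to 0.693 CPM with CL075 and 20.3 to 35.8 CPM with poly(I:C). Of the 7 genes for these cytokines and their antagonists, 7 rose with poly(I:C) (5 on library totals) and 4 with CL075, and none fell. In that order, 25.4% and 17.6% of all tested genes rose with TMM.

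Other lists around the set are described by their calls, which stand beside 25.4% of all tested genes that rose and 30.5% that fell with poly(I:C), and 17.6% and 21.5% with CL075. Of 19 tested cofactors and regulators of inflammasomes, 6 rose and 7 fell with poly(I:C) (2 and 10 on library totals), and 5 rose and 6 fell with CL075 (1 and 10 on library totals), with TMM shares near those of all genes in each direction. Txnip, a partner of thioredoxin that can bind NLRP3, fell from 937.0 ± 55.9 CPM to 294.9 ± 9.61 CPM with CL075 and 455.3 ± 26.8 CPM with poly(I:C). Trim30a, an interferon-induced ubiquitin ligase, rose from 279.3 ± 53.8 CPM to 522.9 ± 49.8 CPM with CL075 and 2163 ± 147.6 CPM with poly(I:C). Ptpn22, a phosphatase, fell from 25.8 ± 2.00 CPM to 6.60 ± 0.58 CPM with CL075 and 8.97 ± 0.45 CPM with poly(I:C). All 3 had the same directions under the 4 scales, though the rise of Trim30a with CL075 (log2 fold change 0.90) came to 0.56 on library totals and was not called there.

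Among relatives of the set, 6 of 15 genes were tested, of which 5 rose and 1 fell with poly(I:C) and 3 rose and 2 fell with CL075, the same counts under the 4 scales. Nod1, a sensor of bacterial peptidoglycan, rose from 13.8 ± 0.74 CPM to 36.4 ± 3.37 CPM with CL075 and 259.0 ± 9.56 CPM with poly(I:C). Zbp1, a sensor of Z-form nucleic acid, rose from 93.1 ± 21.4 CPM to 306.8 ± 48.4 and 1215 ± 37.7 CPM. Nlrp10, an NLR without a ligand-binding repeat, split like Aim2, with 2.64 ± 0.09 CPM in control cells, 0.296 ± 0.130 CPM with CL075 (log2 fold change -3.15, edgeR adjusted p = 6.7e-12) and 12.3 to 16.4 CPM with poly(I:C) (2.41, edgeR adjusted p = 4.4e-14). Casp12, a caspase of the same gene cluster as Casp1 and Casp4, had 0.321 ± 0.158, 0.211 ± 0.080 and 18.5 ± 0.84 CPM in control, CL075 and poly(I:C) libraries and was called with poly(I:C) alone. Of the untested genes found in the tables, none exceeded 6 reads in a library.

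Of 9 transcription factors known for inflammasome genes, 9 rose with poly(I:C) (6 on library totals) and 5 with CL075 (3 on library totals), and none fell with TMM, where 25.4% and 17.6% of all tested genes rose. Irf1, a factor of the interferon response, stood at 67.6 ± 5.93 CPM in control cells, 73.9 ± 11.4 CPM with CL075 and 670.8 ± 27.2 CPM with poly(I:C). Its log2 fold change was 3.31 after poly(I:C) (edgeR adjusted p = 2.0e-17) and 0.13 with CL075 (edgeR adjusted p = 0.16), where it turned negative under the other scales. Nfkb1, a subunit of NF-kB, rose with both, from 92.4 ± 3.83 CPM to 309.4 ± 13.9 CPM with CL075 and 421.1 ± 12.3 CPM with poly(I:C). Stat2, which carries the interferon signal, rose from 263.8 ± 52.5 CPM to 415.9 ± 37.4 CPM with CL075, a call made with TMM alone of the 4 scales (log2 fold changes of 0.51 with upper-quartile factors, 0.38 with Hprt and 0.31 on library totals), and to 1375 ± 7.32 CPM with poly(I:C).

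The calls of genes for membrane rupture and for its repair by ESCRT-III also depended on the scale. Of 14 tested, 6 rose with poly(I:C) and none fell with TMM, where 25.4% of all tested genes rose and 30.5% fell. On library totals 1 rose and 7 fell, where 1544 of the 11804 tested genes rose and 7660 fell. With CL075 the 2 that rose with TMM, where 17.6% of all tested genes rose, were not called with Hprt or on library totals. Chmp4b, a subunit of the repair filament, rose with poly(I:C) on each of the 4 scales and stood at 183.0 CPM in control cells, 317.5 CPM with CL075 and 735.7 CPM with poly(I:C). Pdcd6ip, an adaptor that recruits it, was at 220.6, 274.6 and 267.1 CPM and was called in neither comparison with TMM, but lower with poly(I:C) on library totals (-0.66).

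Over the 15 libraries, which form 3 clusters by group, the genes most like Nlrp3 by Pearson's r of log2 CPM were Gpr84 (0.994), Birc3 (0.994) and Rab11fip1 (0.993). For Casp1 they were Mlkl (0.999), Tbk1 (0.999) and Mtmr14 (0.999), and for Casp4 Slfn4 (0.999), Inpp5b (0.999) and Ifi205 (0.998). Within the set the most alike pairs were Nlrp3 and Mefv (0.990), Casp1 and Gsdmd (0.982) and Pycard and Gsdmd (0.966), and the most opposed was Aim2 and Nlrc4 (-0.950). These values rest on 3 group means and describe the order of the groups.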

How the data were processed

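The 10 genes and the lists around them were chosen with earlier results of these data known. The kit used for the mRNA libraries keeps strand. The authors trimmed the reads and aligned them to GRCm38. They deposited raw read counts per gene and TPM for every library. The counts and TPM used here come from their pipeline in CLC Genomics Workbench. Their second pipeline used HISAT2, featureCounts and edgeR. How strand was treated in counting is not stated in the sources used here. Fold changes and p-values of the authors, and 20 RPKM columns, stand in the same tables and were left out.

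All 15 libraries entered 1 fit on the counts in edgeR 4.0.16 (R 4.3.3), with filterByExpr, TMM and no replicate block, after the test had been tried on simulated data. Standard errors were obtained by dividing each log2 fold change by the root of its F statistic. TPM gave levels between genes and the floor of 0.5. Log2 CPM had a prior count of 2. Alternatives were DESeq2 1.42.0, limma 3.58.1 on log2(TPM + 1), edgeR's test against a fold of 1.5, other scales and filters, fits of 2 groups, a replicate block and leaving out each library.

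All 10 genes are named, and from each further list, for each ligand, the 2 genes of highest mean CPM and the called gene that changed most. The partners of NLRC4 and NLRP3 and Il18 are named besides, for their role. A gene of the transcription factor list that this rule names is not reported here. Python 3.11.15 (numpy 2.4.6, pandas 2.3.3, scipy 1.17.1, matplotlib 3.10.9) made summaries and figures.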

Additional observations from a re-analysis of the deposited data

Results flagged for a closer look

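In 30 groups of 5 libraries (10 genes, 3 groups), the extreme library was checked for a gap to its nearest neighbour of more than 0.71 of the range of the group, which chance gives in about 1 of 20 groups. Aim2 with CL075 met this in replicate 3, at 34.1 CPM, where the other 4 libraries lay between 27.2 and 28.2 CPM (gap of 0.865 of the range). Nlrc4 with CL075 met it in replicate 4, at 30.0 CPM, where the others lay between 34.3 and 36.0 CPM (0.711). Without these libraries both genes stayed called, Aim2 at a log2 fold change of -0.80 and Nlrc4 at 0.69.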

How the results depend on the processing

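In the set, 7 genes rose and 2 fell under poly(I:C), 5 and 3 under CL075, and 6 and 2 were higher and lower in the direct comparison, and leaving out each of the 15 libraries in turn changed none of these. Over the other alternatives they ranged over 6 to 7 and 2 to 3, 4 to 5 and 3, and 5 to 6 and 2 to 3. Of 330 log2 fold changes under these alternatives, 8 lost a call, 8 gained one and 6 turned sign. The log2 fold change of Pycard with CL075 turned from 0.04 to -0.11 with upper-quartile factors, -0.31 with library totals, -0.25 with Hprt, -0.30 with limma on TPM and -0.0064 without CL075 replicate 4 (range over left-out libraries -0.0064 to 0.0986). Nlrp1a for poly(I:C) against CL075 turned from 0.40 to -0.19 with library totals and -0.0945 with limma on TPM. These scales lower every gene together, by the medians given above. With the replicate block, Casp4 with poly(I:C) was at 5.31 and Nlrc4 with CL075 at 0.64, and the block changed no call of the set. The labels do not say what a replicate number marks. Deviations from group means correlated over 0.1 in 14 of 15 pairs of same-numbered libraries (-0.004 to 0.324, median 0.224) and in 2 of 60 other pairs (median -0.047), and 13 of the 15 libraries correlated best with their own number in both other groups. This is a hint of pairing from the data, not the design. Over all genes, the block gave 3009 that rose and 3611 that fell with poly(I:C).

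Over all genes, 3000 rose and 3596 fell with poly(I:C), against 1544 and 7660 with library totals and 5916 that fell with Hprt. With CL075 2076 rose and 2534 fell, against 1207 and 4182 with library totals and 1312 and 3812 with Hprt. For poly(I:C) against CL075 2683 and 2804 became 1630 and 5628 with library totals. Depth did not limit the set, whose lowest library value was 156 reads.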
